A study of Cricetulus griseus with 24 samples.

Results

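The genes described here are Sqstm1 and 8 genes of the NRF2 antioxidant response, namely Nfe2l2, Keap1, Hmox1, Srxn1, Txnrd1, Gclc, Gclm and Nqo1. They were taken by gene name and make up 9 of the 26776 named genes counted in the deposited tables. The phagocytes were LR73 cells, a fibroblast-like Chinese hamster line used to study the eating of dying cells, and the corpses were human Jurkat T lymphoma cells killed with UV C at 1500 mJ and cultured for 4 h. The first experiment had 16 RNA-seq libraries in 4 groups of 4. LR73 cells received corpses together with cytochalasin D, corpses without the drug, or the drug without corpses, and the fourth group was LR73 cells alone, called control below. Cytochalasin D caps actin filaments and so stops a phagocyte from engulfing. The second experiment had 8 libraries, 4 of Slc12a2-deficient and 4 of wildtype LR73 cells. Slc12a2 encodes a sodium, potassium and chloride importer of the plasma membrane. Both genotypes were given corpses for 2 h and then sorted for CypHer5E, a dye that fluoresces in acid compartments, so every library of the second experiment came from cells that had engulfed, and corpse-free cells of either genotype were not analysed here. The sources used here do not give how Slc12a2 was removed, how many clones the deficient cells represent or how long corpses were left in the first experiment.

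NRF2, the protein of Nfe2l2, is a transcription factor that turns on genes against oxidants and reactive chemicals. KEAP1 holds it low by presenting it to a CUL3 ubiquitin ligase, and oxidants or electrophiles that modify KEAP1 let NRF2 accumulate, largely without a change in its mRNA. Sqstm1 encodes p62, a receptor of selective autophagy that can bind KEAP1 and take it to the autophagosome, and Sqstm1 is itself an NRF2 target. Many of these genes also answer to other factors, Hmox1 being repressed by BACH1 and induced by several stress pathways.

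All 9 genes were well covered. The lowest raw count among them was 124, for Nqo1, and every other gene had at least 476 counts in every library. Library totals ran between 8272232 and 18911353 counts in the first experiment and between 22758587 and 28450594 in the second. Slc12a2 averaged 24.67 ± 1.59 CPM (counts scaled by library size) in the deficient cells and 96.79 ± 5.41 CPM in wildtype cells (SD, n = 4 each), in the direction of the labels. The 18 T lymphocyte marker genes were listed to mark the corpses, but not all did. Tcf7 at 23.69 CPM, Lat at 11.02 CPM and Cd28 at 1.298 CPM were already present in control. Several markers at or near 0 in LR73 cells alone appeared at a low level where corpses were present. Lck, a T cell kinase, read 2.208 to 3.855 CPM with corpses and drug, 2.877 to 3.546 CPM with corpses, 0 CPM in every drug library and at most 0.1038 CPM in control. The summed level of the 18 markers was 41.96 to 46.59 CPM with corpses and drug, 42.69 to 46.39 CPM with corpses, 30.83 to 37.05 CPM with the drug and 34.76 to 37.21 CPM in control. Tcf7 and Lat made up most of the sum in every group, at 23.03 and 11.14 CPM with corpses. The sums therefore largely read genes present without corpses. Of the 18 markers 4 were at 0 with corpses and drug, 5 with corpses, and 12 in each of the drug and control groups. The part of corpse RNA in the results below was not tested. The fibroblast markers Vim and Fn1 were abundant, while Col1a1, Col1a2 and Thy1 stayed below 1 CPM in every library. The 12 fibroblast markers in the table summed to 4555 to 4999 CPM with corpses and drug, 6779 to 7294 CPM with corpses, 4511 to 5151 CPM with the drug and 5590 to 6150 CPM in control. Vim made up most of each sum, at 5420 CPM with corpses and 4334 CPM in control. With corpses against control Vim was the 1 marker of 8 tested that was called, and Fn1 was 985.6 against 1027 CPM. With the drug against control 0 of the 8 were called higher and 2 lower. The part of these changes in the results was not tested.

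Compared per length of transcript in control cells, Txnrd1 was the most abundant of the 9 genes at 245 CPM per kb, a level above that of 97.5% of the genes tested. Hmox1 at 76.7, Nfe2l2 at 66.3 and Srxn1 at 62.3 CPM per kb followed. Gclc at 42, Gclm at 39.5 and Sqstm1 at 36.2 CPM per kb lay close together. Keap1 was lower at 20.9 CPM per kb, and Nqo1 the lowest at 10.3 CPM per kb, a level above that of 46.6% of genes. The line thus carried every gene of the set at a measurable level before any treatment. Levels below are CPM after TMM scaling of each table by itself.

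**Figure D1:**
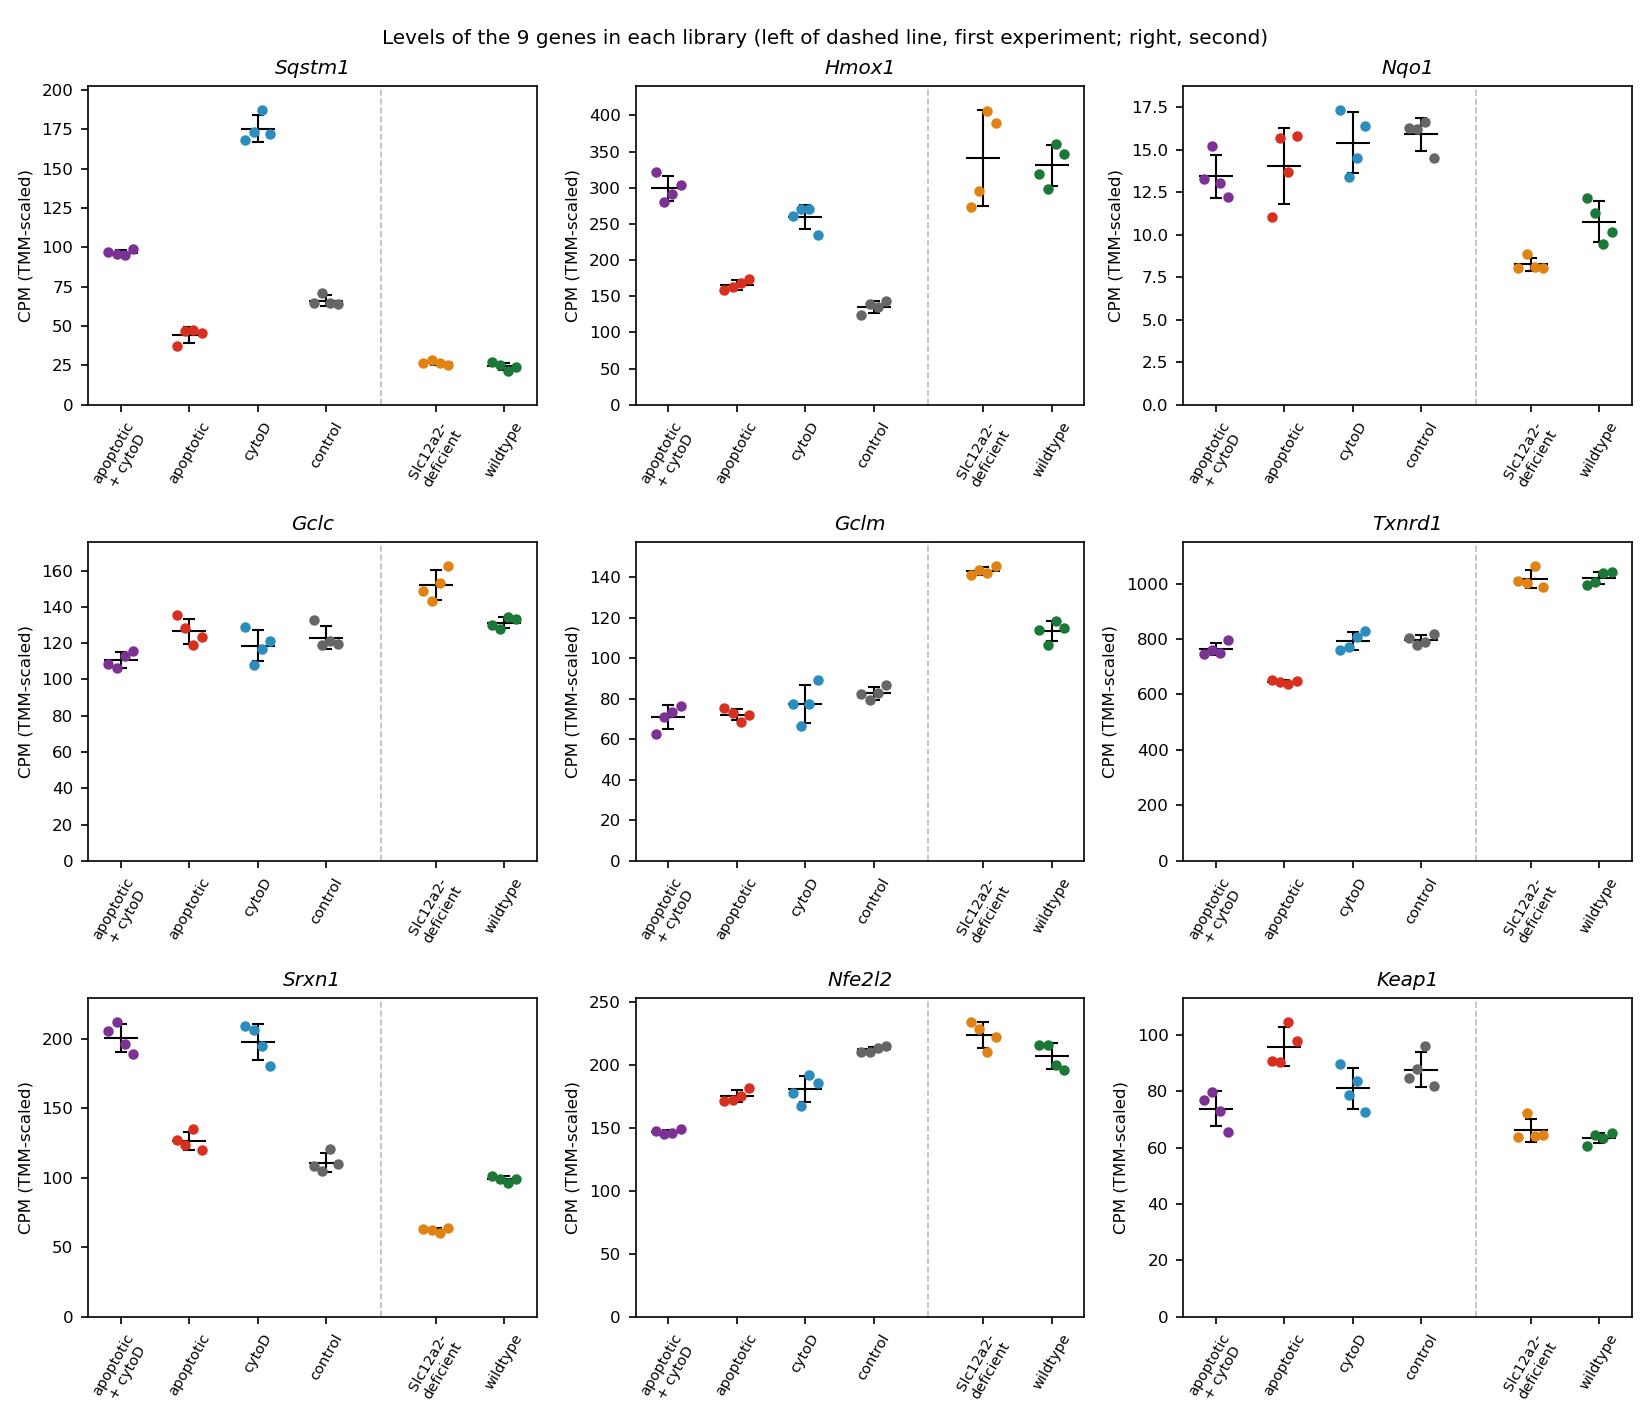
Level of each of the 9 genes in CPM (linear axis from 0) in every library, with the 4 groups of the first experiment left of the dashed line and the 2 genotypes of the second right of it; points are libraries, the horizontal bar is the group mean and the whiskers are the SD (n = 4). Sqstm1 and Hmox1 separate all 4 groups of the first experiment, while Nqo1 groups overlap there; levels on either side of the line were scaled separately.

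Apoptotic cells compared with control. This comparison asks what the encounter with corpses, uptake included, did to the phagocyte. Giving corpses lowered Sqstm1, Txnrd1 and Nfe2l2, and raised Hmox1 and Srxn1 a little. Of the 9 genes, 2 were called higher and 3 lower by edgeR at an adjusted p below 0.05, while 13.7% of all 13106 genes tested were called in this comparison, 6.97% higher and 6.68% lower. In 5 of the 9 genes the groups did not overlap, as in 19.6% of all genes. The median log2 fold change of the 9 genes was -0.18, against 0.00 over all genes. In these bulk samples, as in the sorted cells of the second experiment, fewer cells of a type and less RNA per cell cannot be told apart.

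Among the regulators, Nfe2l2 read 171.5, 172.3, 175.4 and 181.1 CPM with corpses, against 210, 210.2, 213.3 and 214.6 CPM in control. Every corpse library lay below every control library, and Nfe2l2 was 1.21-fold lower (log2 fold change -0.28, SE 0.04, edgeR adjusted p = 7.29e-05). Keap1 was 95.95 ± 6.81 CPM with corpses and 87.69 ± 6.21 CPM in control (SD, n = 4 each), and its difference did not pass the test (log2 fold change 0.13, 95% interval -0.01 to 0.27, edgeR adjusted p = 0.223). Sqstm1 read 37.01, 46.9, 47.55 and 45.58 CPM with corpses, against 64.85, 71.08, 64.79 and 63.76 CPM in control. The groups lay well apart, with the first corpse library the lowest of all 16, and Sqstm1 was 1.49-fold lower (log2 fold change -0.58, SE 0.06, edgeR adjusted p = 1.69e-06).

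Hmox1, whose product heme oxygenase breaks heme into biliverdin, iron and carbon monoxide, read 158.6, 162.5, 168.3 and 173.6 CPM with corpses, against 124.6, 139.7, 134.8 and 143.6 CPM in control. All corpse libraries were above all controls, by 1.22-fold on average (log2 fold change 0.29, SE 0.05, edgeR adjusted p = 0.000879). Srxn1 encodes sulfiredoxin, which restores over-oxidised peroxiredoxins, and read 127.5, 123.7, 135.3 and 119.9 CPM with corpses, against 108.3, 104.8, 120.5 and 110 CPM in control. Here the lowest corpse library fell just under the highest control. The 1.14-fold rise of Srxn1 (log2 fold change 0.19, SE 0.06, edgeR adjusted p = 0.0225) did not pass when control replicate 1, 2 or 4 or corpse replicate 1 or 3 was left out, with adjusted p between 0.0529 and 0.097.

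Txnrd1, the cytosolic thioredoxin reductase, went the other way. It read 651.6, 644.1, 638.3 and 649 CPM with corpses, against 802.1, 780, 789.7 and 818.9 CPM in control. The corpse libraries were tightly grouped and all below control, by 1.24-fold (log2 fold change -0.30, SE 0.03, edgeR adjusted p = 1.48e-06). The genes for the catalytic and modifier subunits of glutamate-cysteine ligase, which makes the first step of glutathione synthesis, did not pass. Gclc was 126.6 ± 6.96 CPM with corpses and 123 ± 6.45 CPM in control (SD, n = 4 each; edgeR adjusted p = 0.7). Gclm read 75.2, 72.74, 68.41 and 71.96 CPM with corpses, against 82.13, 79.08, 82.59 and 86.91 CPM in control. Those Gclm groups did not overlap although the difference missed the threshold (log2 fold change -0.20, SE 0.07, edgeR adjusted p = 0.0669). It passed with no filter on low counts, where the adjusted p was 0.0335, and when fitted on the 8 compared libraries alone, where it was 0.0116. Nqo1, which encodes a quinone reductase, was 14.04 ± 2.23 CPM with corpses and 15.89 ± 0.949 CPM in control (SD, n = 4 each; edgeR adjusted p = 0.324).

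Cytochalasin D compared with control. Cytochalasin D without corpses raised Sqstm1, Hmox1 and Srxn1 and lowered Nfe2l2, and moved none of the other 5 genes past the threshold. These 3 higher and 1 lower calls among 9 genes stand beside 26.3% of all tested genes called, 13.5% higher and 12.8% lower. The groups did not overlap for the 4 called genes, as for 24.3% of all genes. The median log2 fold change was -0.05 over the 9 genes and 0.01 over all genes.

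Sqstm1 read 168, 173.3, 187.4 and 172.1 CPM with the drug, and its lowest drug library stood far above the highest control at 71.08 CPM (log2 fold change 1.40, SE 0.06, edgeR adjusted p = 2.1e-14). Hmox1 read 261.2, 270.9, 270.8 and 235 CPM with the drug, and was 1.91-fold higher than control (log2 fold change 0.94, SE 0.05, edgeR adjusted p = 3.71e-12). Srxn1 read 209.4, 206.4, 195.3 and 180.3 CPM with the drug, and was 1.78-fold higher (log2 fold change 0.84, SE 0.05, edgeR adjusted p = 4.09e-11). For all 3 genes every drug library was above every control library. Nfe2l2 read 177.6, 167.3, 191.4 and 185.6 CPM with the drug, all below its controls, and was 1.17-fold lower (log2 fold change -0.23, SE 0.04, edgeR adjusted p = 0.000116).

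The enzymes of glutathione synthesis, thioredoxin reduction and quinone reduction gave small estimates with the drug. Txnrd1 averaged 791.6 ± 32.2 CPM with the drug and 797.7 ± 16.8 CPM in control (SD, n = 4 each), with a 95% interval of the log2 fold change of -0.08 to 0.06 (edgeR adjusted p = 0.859). The intervals were -0.17 to 0.06 for Gclc, -0.24 to 0.06 for Gclm and -0.28 to 0.18 for Nqo1. Keap1 averaged 81.16 ± 7.22 CPM with the drug and 87.69 ± 6.21 CPM in control (SD, n = 4 each; edgeR adjusted p = 0.261). The intervals therefore leave room for changes in these 5 genes only well below the log2 fold changes of 0.84 to 1.40 seen in the 3 genes that rose.

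**Figure D2:**
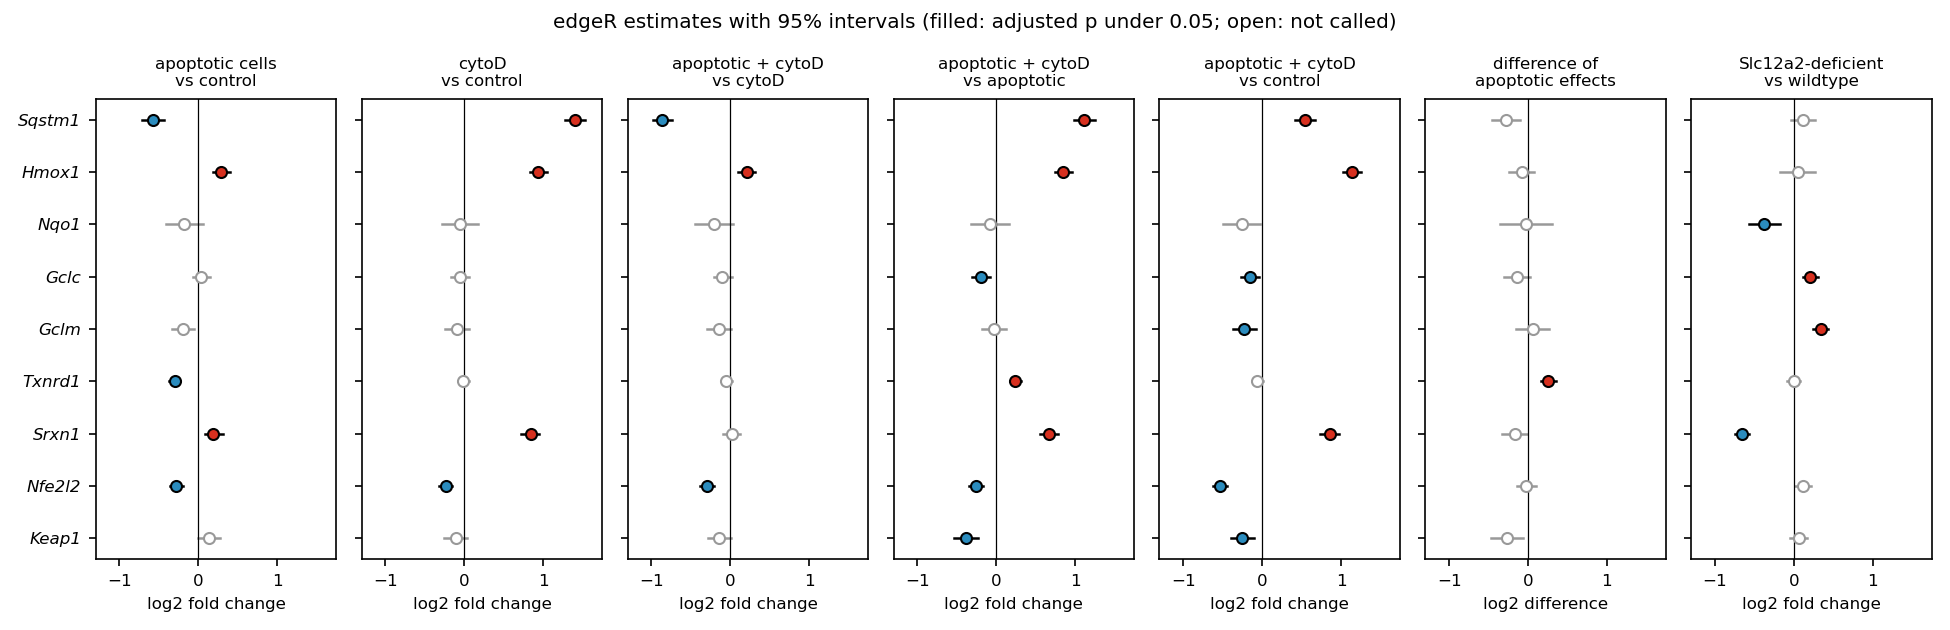
Log2 fold change of each gene (points) with its 95% interval (bars) in each of the 7 comparisons, by edgeR; filled red and blue points are called higher and lower at an adjusted p below 0.05, open points are not called. Nfe2l2 is on the lower side in all 5 comparisons between groups of the first experiment, at -0.23 to -0.53, and Hmox1 on the higher side in all 5, at 0.21 to 1.14; comparisons that share libraries are not independent.

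Apoptotic cells with cytochalasin D compared with cytochalasin D. This comparison asks what corpses did to phagocytes under the drug. Adding corpses lowered Sqstm1 and Nfe2l2 and raised Hmox1 slightly, so that 1 gene was called higher and 2 lower. Over all genes tested, 8.61% were called, 4.82% higher and 3.79% lower. The groups did not overlap for 3 of the 9 genes, against 13.5% of all genes. The median log2 fold change was -0.14 for the 9 genes and -0.01 for all.

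Sqstm1 read 96.81, 95.94, 94.93 and 98.77 CPM with corpses and drug, all under its lowest value with the drug alone, and was 1.81-fold lower (log2 fold change -0.86, SE 0.06, edgeR adjusted p = 1.5e-09). Nfe2l2 read 147, 144.9, 145.8 and 149 CPM with corpses and drug, again all below the drug alone, and was 1.23-fold lower (log2 fold change -0.30, SE 0.04, edgeR adjusted p = 3.42e-05). Hmox1 read 321.1, 280.5, 290.8 and 303.4 CPM with corpses and drug, and was 1.15-fold higher than with the drug alone (log2 fold change 0.21, SE 0.05, edgeR adjusted p = 0.0143). Its lowest library there was above the highest drug library, at 270.9 CPM. Srxn1, at 200.9 ± 10.1 CPM with corpses and drug and 197.9 ± 13.1 CPM with the drug (SD, n = 4 each), had a 95% interval of -0.09 to 0.13 (edgeR adjusted p = 0.861). Txnrd1, at 764.6 ± 22.4 CPM with corpses and drug and 791.6 ± 32.2 CPM with the drug (SD, n = 4 each), had one of -0.12 to 0.02 (edgeR adjusted p = 0.4).

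Whether corpses acted differently with and without the drug was tested as the difference between the effects in its presence and in its absence. Of the 9 genes 1 was called, and over all genes 4.56% were, 3.03% higher and 1.53% lower. The gene was Txnrd1. The corpse effect on Txnrd1 was -0.05 log2 units with the drug and -0.30 without it, a difference of 0.25 (SE 0.05, edgeR adjusted p = 0.00327), which was called under all 23 alternative fits. Sqstm1 was lowered in both settings, by estimates of -0.86 with the drug and -0.58 without it, and the difference of -0.28 (SE 0.09, 95% interval -0.46 to -0.10) did not pass (edgeR adjusted p = 0.063). It passed under 5 of the 23 alternatives, with an adjusted p of 0.0342 by DESeq2, 0.0447 with no filter, 0.0397 without control replicate 2, 0.0353 without cytochalasin D replicate 4 and 0.0104 without apoptotic cells replicate 1. For Nfe2l2 the 2 corpse effects were -0.30 and -0.28, and the interval of their difference was -0.14 to 0.10. For Hmox1 they were 0.21 and 0.29, with an interval of -0.24 to 0.07. Srxn1, called without the drug and not under it, had a difference of -0.17 that did not pass (edgeR adjusted p = 0.202). Keap1 had one of -0.27 (SE 0.10, edgeR adjusted p = 0.118), which passed at an adjusted p of 0.0325 without cytochalasin D replicate 4. The median difference was -0.08 over the 9 genes and -0.02 over all genes.

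Apoptotic cells with cytochalasin D compared with apoptotic cells. With corpses present, the drug raised Sqstm1, Hmox1, Srxn1 and Txnrd1 and lowered Nfe2l2, Keap1 and Gclc. These 4 higher and 3 lower calls stand beside 32.5% of all genes called, 16.4% higher and 16.1% lower. The groups did not overlap for 7 of the 9 genes, against 32.1% of all genes. Sqstm1 was 2.18-fold higher (log2 fold change 1.12, SE 0.06, edgeR adjusted p = 2.03e-12), Hmox1 1.8-fold and Srxn1 1.59-fold. Txnrd1, at 747.7, 762.3, 751.5 and 797 CPM with corpses and drug, was above all its corpse libraries by 1.18-fold (log2 fold change 0.24, SE 0.03, edgeR adjusted p = 4.59e-06). Keap1 read 76.83, 79.87, 73.24 and 65.48 CPM with corpses and drug, against 90.67, 90.52, 104.8 and 97.82 CPM with corpses. The Keap1 groups were well separated, with a 1.3-fold lower level under the drug (log2 fold change -0.38, SE 0.07, edgeR adjusted p = 0.000201). Gclc read 108.5, 106.1, 112.7 and 115.6 CPM with corpses and drug, against 135.3, 128.4, 119.1 and 123.4 CPM with corpses, and was 1.14-fold lower (log2 fold change -0.19, SE 0.05, edgeR adjusted p = 0.00974). The median log2 fold change was -0.03 over the 9 genes and -0.00 over all genes.

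Apoptotic cells with cytochalasin D compared with control. The combination gave the highest Hmox1 and the lowest Nfe2l2 of the 4 groups, and 3 genes were called higher and 4 lower, where 26.5% of all genes were called, 13.7% higher and 12.8% lower. The groups did not overlap for those 7 genes, as for 27.8% of all genes. Hmox1 was 2.21-fold higher than control (log2 fold change 1.14, SE 0.05, edgeR adjusted p = 7.89e-14), Srxn1 1.81-fold and Sqstm1 1.46-fold. Nfe2l2 was 1.44-fold lower (log2 fold change -0.53, SE 0.04, edgeR adjusted p = 5.17e-10). The 3 smaller decreases depended on single libraries. Keap1 was 1.19-fold lower (edgeR adjusted p = 0.0105) and missed the threshold without control replicate 3, at 0.0525. Gclm, at 62.71 to 76.12 CPM with corpses and drug and 79.08 to 86.91 CPM in control, was 1.17-fold lower (edgeR adjusted p = 0.0221). It missed without control replicate 4, at 0.0639, and without replicate 1 of the combination, at 0.0966. Gclc was 1.11-fold lower (edgeR adjusted p = 0.0432) and missed without control replicate 1 or 3 or without replicate 1, 2 or 3 of the combination, at 0.0608 to 0.165. The median log2 fold change was -0.15 over the 9 genes and 0.01 over all genes.

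Sqstm1 and Hmox1 ordered the 4 groups differently. Sqstm1 was highest with the drug alone at 175.2 ± 8.47 CPM, then 96.61 ± 1.63 CPM with corpses and drug, 66.12 ± 3.34 CPM in control and 44.26 ± 4.9 CPM with corpses. Hmox1 was highest with corpses and drug at 299 ± 17.5 CPM, then 259.5 ± 17 CPM with the drug, 165.7 ± 6.57 CPM with corpses and 135.7 ± 8.22 CPM in control (SD, n = 4 for each group of both genes). No neighbouring groups overlapped in either order. Over the 5 comparisons between groups of the first experiment, which share libraries, Hmox1 was called higher in 5 and Nfe2l2 lower in 5. Sqstm1 was called higher in 3 and lower in 2, Srxn1 higher in 4, and Nqo1 in 0, its libraries running between 11.04 and 17.35 CPM. The Sqstm1 exons share 139 of 1828 bp with a gene on the other strand, LOC100768063, and the counting named no strand option, so reads of both genes in that stretch cannot be told apart. That neighbour averaged 10.0 CPM with corpses and drug, 11.4 CPM with corpses, 10.7 CPM with the drug and 10.1 CPM in control. In the second experiment LOC100768063 averaged 7.004 CPM in deficient and 5.823 CPM in wildtype cells. The part of the shared stretch in the Sqstm1 counts was not tested.

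**Figure D3:**
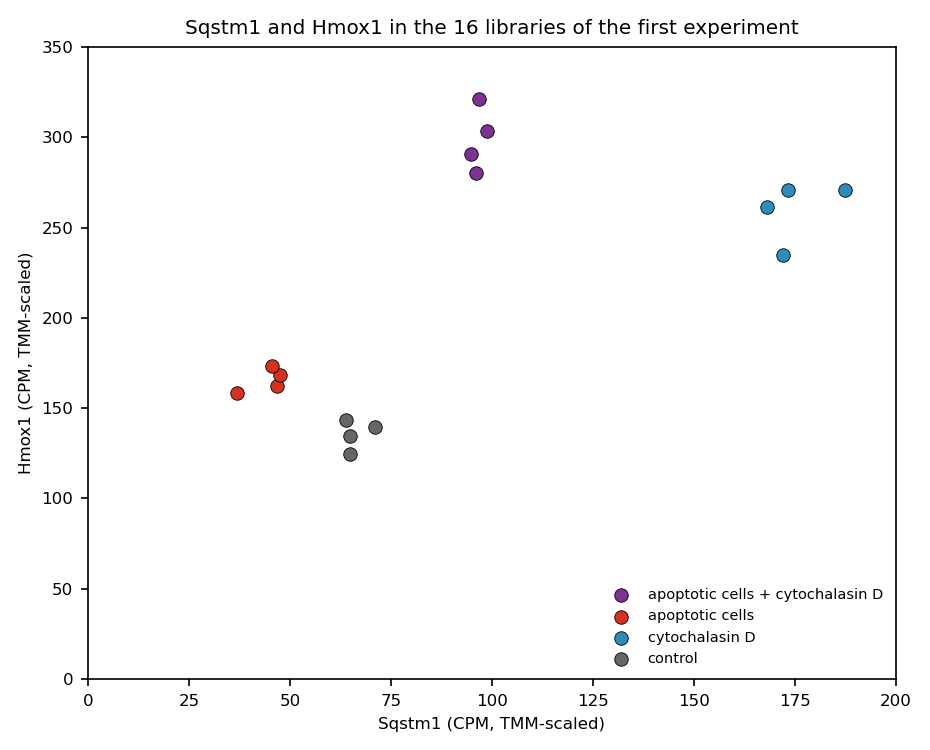
Hmox1 level (vertical, CPM) against Sqstm1 level (horizontal, CPM) in the 16 libraries of the first experiment, 1 point per library, coloured by group. Both drug groups lie high on the Hmox1 axis, and within either drug setting the corpse libraries lie to the left, at lower Sqstm1, and higher, at more Hmox1.

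The genes whose profile over the 16 libraries was nearest to that of Sqstm1, by the root mean square difference of centred log2 levels among 8920 genes, were Zswim4 at 0.244, Ttyh2 at 0.27, Stk40 at 0.287, and Dennd3 and Plin4 at 0.291. Zswim4 averaged 59.47 ± 4.46 CPM with corpses and drug, 29.47 ± 2.31 CPM with corpses, 85.23 ± 11.9 CPM with the drug and 45.41 ± 2.68 CPM in control (SD, n = 4 each), the same order of groups as Sqstm1. The profiles nearest to Hmox1 were Actn1 at 0.107, Rcan1 at 0.115, Fosl2 at 0.118, Ssh1 at 0.121 and Src at 0.122. These differences were not scaled to the span of the group means, which was 1.98 log2 units for Sqstm1 and 1.14 for Hmox1. They therefore cannot be compared between Sqstm1 and Hmox1. Actn1, which encodes the actin crosslinker alpha-actinin, averaged 469 ± 18.7 CPM with corpses and drug, 261 ± 9.18 CPM with corpses, 437.7 ± 18 CPM with the drug and 248.7 ± 4.06 CPM in control (SD, n = 4 each). The other 7 genes of the set spanned 1 log2 unit or less between groups and were not compared in this way.

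Other NRF2 target genes did not move as a block. Of 35 tested, 1 was called higher and 6 lower with corpses against control, and 10 higher and 6 lower with the drug against control. Over all genes 6.97% were called higher and 6.68% lower with corpses, and 13.5% higher and 12.8% lower with the drug. For the 35 the median log2 fold change was -0.05 with corpses and 0.01 with the drug, against 0.00 and 0.01 over all genes. With the drug against control the rises included Sesn2, a sestrin that restrains mTORC1 signalling, at 32.43 ± 3.39 against 21.03 ± 0.827 CPM (log2 fold change 0.62, edgeR adjusted p = 2.93e-06), and Gss, glutathione synthetase (log2 fold change 0.37, edgeR adjusted p = 8.06e-07). The falls included Cbr3, a carbonyl reductase, at 22.82 ± 2.89 against 40.44 ± 2.59 CPM (log2 fold change -0.83, edgeR adjusted p = 2.99e-07), and Gsr, glutathione reductase, at 29.29 ± 2.1 against 40.28 ± 3.3 CPM (log2 fold change -0.46, edgeR adjusted p = 0.000105; SD, n = 4 each). With corpses against control, Slc7a11, the cystine importer that feeds glutathione synthesis, was lower by a log2 fold change of -1.09 (SE 0.27, edgeR adjusted p = 0.00841). Slc7a11 had low counts, its mean over the first experiment lying below the 4 CPM set for naming list genes, and its estimate is imprecise. Fth1, the ferritin heavy chain, was the 1 called higher (log2 fold change 0.16, edgeR adjusted p = 0.0214). It was also the 1 of 35 called for the difference between corpse effects, at -0.28 (edgeR adjusted p = 0.0139). With corpses and drug, 0 were called higher and 4 lower against the drug (median -0.09), 8 higher and 10 lower against corpses (median -0.02), and 4 higher and 9 lower against control (median -0.08). The shares of all genes called in those 3 comparisons were 4.82% higher and 3.79% lower, 16.4% and 16.1%, and 13.7% and 12.8%, the same background as for the lists that follow.

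Among 20 tested partners and regulators of NRF2, Mafg, a small MAF protein that binds DNA together with NRF2, gave the same directions as Sqstm1. It averaged 159.1 ± 3.3 CPM with corpses and drug, 89.15 ± 5.66 CPM with corpses, 178.3 ± 5.86 CPM with the drug and 111.3 ± 3.72 CPM in control (SD, n = 4 each). Mafg was higher with the drug against control (log2 fold change 0.68, SE 0.05, edgeR adjusted p = 5.96e-11), lower with corpses against control (-0.32, SE 0.05, adjusted p = 7.32e-05) and lower with corpses and drug against the drug (-0.16, SE 0.05, adjusted p = 0.023). Bach1, the repressor of Hmox1, was lower in both comparisons that added corpses, by a log2 fold change of -0.27 (SE 0.05) without the drug and -0.33 (SE 0.05) with it (edgeR adjusted p = 0.000779 and 0.000177). With the drug against control the Bach1 estimate was 0.00 (SE 0.05, edgeR adjusted p = 0.966). The whole list counted 0 higher and 3 lower with corpses against control (median -0.07), 4 and 1 with the drug against control (median 0.03), and 0 and 2 with corpses and drug against the drug (median -0.07). It counted 4 and 1 with corpses and drug against corpses (median 0.05), 3 and 2 against control (median -0.01), and none for the difference of corpse effects, of which the median was -0.02.

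Of 26 tested autophagy receptors, ATG8 proteins and their regulators, 0 were called higher and 9 lower with corpses against control (median log2 fold change -0.08), and 9 higher and 2 lower with the drug against control (median 0.15). Over all genes 6.97% were higher and 6.68% lower with corpses, and 13.5% higher and 12.8% lower with the drug. With corpses and drug against the drug, 0 of the 26 were higher and 5 lower (median -0.12), against 4.82% and 3.79% of all genes. Nbr1, a selective autophagy receptor like p62, averaged 237.2 ± 5.62 CPM with corpses and drug, 179.6 ± 4.68 CPM with corpses, 287.3 ± 10 CPM with the drug and 228.8 ± 4.67 CPM in control (SD, n = 4 each). Its log2 fold change was -0.35 with corpses against control (SE 0.04, edgeR adjusted p = 1.02e-06), 0.33 with the drug against control (SE 0.04, adjusted p = 2.53e-07) and -0.28 with corpses and drug against the drug (SE 0.04, adjusted p = 2.04e-05). Nbr1 thus moved in the same direction as Sqstm1 in these 3 comparisons, by smaller amounts. Tollip, an endosomal adaptor that also acts as an autophagy receptor, was higher with the drug against control (log2 fold change 0.57, edgeR adjusted p = 5.62e-10), as was the ATG8 protein gene Map1lc3b (0.33, adjusted p = 2.35e-06). Tfeb, a transcription factor for lysosome and autophagy genes, went lower with corpses and drug against corpses, at 5.957 ± 1.38 against 13.6 ± 2.07 CPM (SD, n = 4 each; log2 fold change -1.16, SE 0.17, edgeR adjusted p = 1.1e-05). That comparison counted 12 higher and 4 lower (median 0.16), and the comparison of the combination with control 8 and 5 (median 0.01). For the difference of corpse effects 1 was higher and 0 lower (median -0.01).

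**Figure D4:**
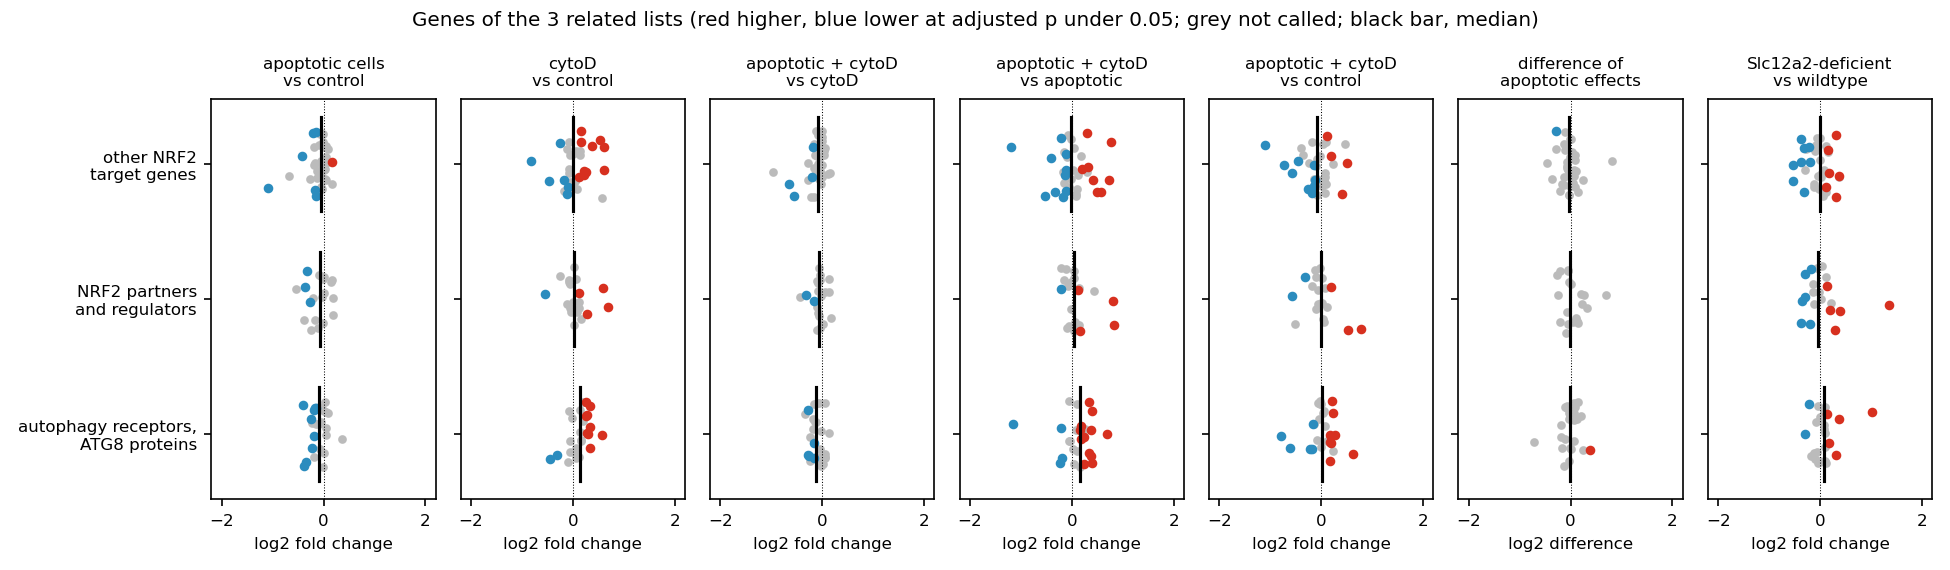
Log2 fold change (horizontal) of every tested gene of the 3 related lists (rows) in the 7 comparisons (panels); each point is a gene, red called higher, blue called lower, grey not called, and the black bar is the list median. The medians lie between -0.12 and 0.16, with called genes on both sides in most panels.

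Slc12a2-deficient compared with wildtype phagocytes. In engulfing cells, loss of Slc12a2 went with lower Srxn1 and Nqo1 and with higher Gclm and Gclc, and with no call for Sqstm1, Hmox1, Txnrd1, Nfe2l2 or Keap1. These 2 higher and 2 lower calls stand beside 42.5% of the 13050 genes tested, 21.1% higher and 21.3% lower. The groups did not overlap for 4 of the 9 genes, against 39.6% of all genes. The share of the set that changed was therefore close to that of all genes. The median log2 fold change was 0.06 over the 9 genes and -0.00 over all. Lck was at most 0.1093 CPM in deficient and 0.157 CPM in wildtype cells. The summed T lymphocyte markers were 23.18 to 28.02 CPM in deficient and 29.58 to 32.18 CPM in wildtype cells, with 10 of the 18 at 0 in deficient and 9 in wildtype cells. Most of these sums came from Tcf7, at 18.5 CPM in deficient and 16.08 CPM in wildtype cells, and Lat, at 4.661 and 10.81 CPM. Both genes were also present in the first experiment's control, so the sums do not measure corpse RNA. The fibroblast markers moved with the genotype, since of the 8 tested 1 was called higher and 7 lower in deficient cells (median log2 fold change -0.69). Pdgfrb, a growth factor receptor, was 4.87-fold lower (edgeR adjusted p = 5.65e-08) and Fn1, which encodes fibronectin, was 1.91-fold lower (edgeR adjusted p = 2.39e-07). The 12 markers in the table summed to 4247 to 4540 CPM in deficient and 4440 to 4767 CPM in wildtype cells, with Thy1 at 0 in deficient cells, and their part in the results below was not tested.

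Srxn1 read 63.51, 62.75, 60.32 and 63.89 CPM in deficient cells, against 101.5, 98.94, 96.26 and 98.86 CPM in wildtype cells. The genotypes were far apart with little spread within either, and Srxn1 was 1.58-fold lower in deficient cells (log2 fold change -0.66, SE 0.04, edgeR adjusted p = 7.28e-09). Nqo1 read 8.04, 8.855, 8.084 and 8.036 CPM in deficient cells, against 12.16, 11.28, 9.45 and 10.13 CPM in wildtype cells. The highest deficient library was still below the lowest wildtype one, and Nqo1 was 1.3-fold lower (log2 fold change -0.38, SE 0.09, edgeR adjusted p = 0.00363).

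Both subunits of glutamate-cysteine ligase moved up together in deficient cells. Gclm read 140.8, 143.3, 142.1 and 145.6 CPM in deficient cells, against 113.8, 106.4, 118.2 and 114.7 CPM in wildtype cells. Gclc read 148.6, 143.4, 153.4 and 162.8 CPM in deficient cells, against 129.9, 127.6, 134.4 and 133.3 CPM in wildtype cells. Neither pair of groups overlapped, with Gclm 1.26-fold higher (log2 fold change 0.34, SE 0.04, edgeR adjusted p = 1.77e-05) and Gclc 1.16-fold higher (log2 fold change 0.21, SE 0.05, edgeR adjusted p = 0.00197). The calls on Srxn1, Nqo1, Gclm and Gclc were kept under all 14 alternative fits of this experiment.

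Sqstm1 averaged 26.48 ± 1.34 CPM in deficient and 24.44 ± 2.37 CPM in wildtype cells (SD, n = 4 each), with a 95% interval of the log2 fold change of -0.04 to 0.27 (edgeR adjusted p = 0.213). Hmox1 read 273.6, 295.7, 406.4 and 390.1 CPM in deficient cells, against 318.4, 297.6, 361 and 346.3 CPM in wildtype cells. Its genotypes overlapped widely and the deficient libraries split into a lower and a higher pair, so the interval of -0.18 to 0.27 was the widest among those of the 9 genes (edgeR adjusted p = 0.76). Txnrd1 had the narrowest, at -0.09 to 0.08 (edgeR adjusted p = 0.942). Nfe2l2 averaged 223.6 ± 10.3 CPM in deficient and 206.7 ± 10.4 CPM in wildtype cells (SD, n = 4 each; log2 fold change 0.11, SE 0.05, edgeR adjusted p = 0.076). It passed without wildtype replicate 1, at 0.0485, and without Slc12a2-deficient replicate 3, at 0.0319. Keap1 averaged 66.16 ± 4.1 CPM in deficient and 63.48 ± 1.94 CPM in wildtype cells (SD, n = 4 each; edgeR adjusted p = 0.372).

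Of the 34 other NRF2 targets tested there, 6 were higher and 8 lower in deficient cells, where 21.1% of all genes were higher and 21.3% lower (median log2 fold change -0.01, against -0.00 over all genes). Gsr, lower under cytochalasin D in the first experiment, was higher in deficient cells at 63.76 ± 2.05 against 51.07 ± 2.3 CPM in wildtype cells (log2 fold change 0.32, SE 0.05, edgeR adjusted p = 7.77e-05). Me1, a malic enzyme that makes NADPH, was higher too (0.31, SE 0.04, adjusted p = 2.77e-05). Of the peroxiredoxin genes on the list, Prdx1 was lower (-0.19, SE 0.05, edgeR adjusted p = 0.00443) and Prdx6 higher (0.17, SE 0.04, edgeR adjusted p = 0.005). Of 20 partners and regulators 5 were higher and 6 lower (median -0.04). Btrc, the substrate receptor of a second ubiquitin ligase for NRF2, averaged 43.64 ± 3.02 CPM in deficient and 17 ± 0.505 CPM in wildtype cells (log2 fold change 1.36, SE 0.06, edgeR adjusted p = 1.42e-10). Mafg averaged 86.73 ± 6 CPM in deficient and 110.3 ± 4.38 CPM in wildtype cells (log2 fold change -0.35, SE 0.05, edgeR adjusted p = 9.1e-05; SD, n = 4 each). Of 26 autophagy genes 5 were higher and 2 lower (median 0.07), led by the ATG8 protein gene Gabarapl2, at 110.6 ± 11.5 CPM in deficient and 54.63 ± 1.81 CPM in wildtype cells (SD, n = 4 each; log2 fold change 1.02, SE 0.07, edgeR adjusted p = 7.07e-09).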

How the data were processed

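Messenger RNA of LR73 cells was sequenced as 75 bp read pairs, per the labels' protocols. The deposited tables hold raw counts per gene, made by the authors with featureCounts 1.5.0 per the file headers; STAR and DESeq2 are named in the submitters' processing notes, and the genome build is not given in the sources used here. A row with no gene name, holding 0.0249 to 1.65% of a library's counts, was left out. The 2 tables were modelled separately, with group as the only term, by the quasi-likelihood F test of edgeR 4.0.16 under R 4.3.3. Low genes were dropped by filterByExpr at a count of 10 and a total of 15, scaling used TMM, and p-values were adjusted over all genes tested (Benjamini-Hochberg). All 9 genes passed the filter. The common biological coefficient of variation was 7.04% in the first and 6.06% in the second experiment. A standard error is the log2 fold change divided by the root of F. At 3 counts the floor was 0.105 to 0.363 CPM, covering counting error only. The 4 libraries of a group are biological replicates per the labels; whether these were separate cultures is not stated, so p-values measure the spread between these libraries. The genes and lists were chosen with earlier results of these data known. Up to 3 called genes per list, direction and comparison with the largest change and a mean of at least 4 CPM could be named; Gss under the drug, Slc7a11, Prdx1, Prdx6 and the Bach1 value without a call were added after their values were seen. Alternatives were DESeq2 1.42.0, other scaling factors, other filters, removal of the length trend, a replicate block, fewer libraries and leaving out each library.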

Additional observations from a re-analysis of the deposited data

Results flagged for a closer look

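Of 54 sets of 4 libraries, one per gene and group, 4 had a library far from the other 3. The rule used flags about 1 in 20 by chance in independent sets. These sets share libraries, and whether 4 exceeds that rate was not tested. Sqstm1 read 71.08 CPM in control replicate 2 and 63.76 to 64.85 CPM in the other controls. Gclc read 132.6 CPM in control replicate 1 and 119 to 121 CPM in the others. Nqo1 read 8.855 CPM in Slc12a2-deficient replicate 2 and 8.036 to 8.084 CPM in the others. Keap1 read 72.3 CPM in the same deficient library and 63.77 to 64.38 CPM in the others. The effect of corpses on Txnrd1 differed with and without cytochalasin D by 0.25 log2 units (edgeR adjusted p = 0.00327).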

How the results depend on the processing

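Of 1053 gene results recomputed under alternatives, 1002 kept their direction and side of the threshold, 13 lost a call, 13 gained one and 25 changed sign; all of the last were uncalled estimates near 0, and the cause was not tested. The count of the 9 genes called for the difference of corpse effects was 1 and became 2 by DESeq2, 2 with no filter and 1 to 3 when libraries were left out, above 1 without control replicate 2, cytochalasin D replicate 4 or apoptotic cells replicate 1. In log2 units, signs changed for Txnrd1 with the drug against control (0.003 with the length trend removed, 0.003 with that and the replicate block, -0.039 to 0.002 with a library left out), for Nqo1 in the difference of corpse effects (0.005 with block and length trend, -0.12 to 0.035 with a library left out) and for Txnrd1 between genotypes (0.002 with no filter, -0.018 to 0.019 with a library left out). With a library left out, signs also changed for Nqo1 with the drug against control (-0.11 to 0.003), Srxn1 with corpses and drug against the drug (-0.021 to 0.053), Gclm with corpses and drug against corpses (-0.069 to 0.027), Gclm (-0.003 to 0.14) and Nfe2l2 (-0.055 to 0.007) in the difference, and Hmox1 between genotypes (-0.040 to 0.14). Over all genes, the difference of corpse effects called 598 genes, against 913 by DESeq2, 928 with no filter and 251 to 1645 with a library left out (past 1.5 times without control replicate 1, any cytochalasin D replicate, or replicate 3 or 4 of either corpse group); corpses against control called 1789, against 1103 without apoptotic cells replicate 3. Same-numbered libraries of the first experiment mostly deviated together little (r of -0.227 to 0.424 over 24 pairs, 4 above 0.1), and 6 of 16 libraries correlated best with their own number. The highest r, 0.422 and 0.424, were for replicates 1 and 4 of corpses and drug against the drug. This check cannot exclude a partial pairing by number. The replicate block called 753 genes for the difference of corpse effects, against 598 without it. With the replicate block 6 rather than 5 of the 9 genes were called with corpses against control, Gclm joining at an adjusted p of 0.047. Library numbers in the second experiment do not repeat between genotypes, so no replicate block could be fitted there; a term for numbers 9 to 12 against 13 to 16 was fitted instead. Depth did not limit these genes, of which the lowest count was 124.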

Other observations

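In the second experiment the labels number the libraries 9 to 16, with 2 of each genotype in 9 to 12 and in 13 to 16, and do not say that the numbers mark a batch. Hmox1 averaged 284.7 CPM in deficient and 308 CPM in wildtype cells among libraries 9 to 12, and 398.2 CPM in deficient and 353.6 CPM in wildtype cells among libraries 13 to 16. Nfe2l2 averaged 231.1 CPM in deficient and 215.6 CPM in wildtype cells in the lower numbers, and 216 CPM in deficient and 197.7 CPM in wildtype cells in the higher numbers. With the library number as a term, an alternative chosen after seeing the data, Nfe2l2 was called higher in deficient cells (log2 fold change 0.11, edgeR adjusted p = 0.0207). Sqstm1 averaged 24.44 CPM in wildtype cells of the second experiment and 44.26 CPM in the first experiment's corpse group, tables that were scaled separately, and no test was made between them. The former were sorted for CypHer5E after 2 h with corpses, while the latter were bulk samples with an unstated time, so the levels are not like for like.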
